A study of Arabidopsis thaliana with 14 samples.

Results

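The 9 genes described here encode light-signaling proteins of *Arabidopsis*: the photoreceptors *PHYA* and *PHYB*, the PHYTOCHROME INTERACTING FACTORS *PIF1*, *PIF3*, *PIF4*, *PIF5*, *PIF7* and *PIF8*, and the transcription factor *HY5*. They were taken by gene identifier from 33278 identifiers in each of the gene expression tables of a study of histone deacetylase HDA9 and its SANT domain partner POWERDRESS (PWR) in leaf aging, and each has a value in all 9 RNA-seq libraries. The rule that picks them uses identifiers and no threshold on a value. Early senescent (ES) leaves were sampled from wild type Columbia-0 (WT), from the T-DNA insertion mutant *hda9* and from the T-DNA insertion mutant *pwr*, with 2 libraries for each genotype. Young leaves (YL), labelled as 2 weeks old, were sampled from WT with 2 libraries and from *hda9* with 1 library. All plants grew in soil under continuous light, at 21 °C by the labels, so none of the libraries carries a dark or shade treatment. Each mutant is a single insertion line, and the labels give no age for the ES leaves.

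Phytochromes are red and far-red light receptors that switch between an inactive and an active form. phyA is the light-labile receptor of very low light and far-red light, whereas phyB is the main light-stable receptor of red light in green tissue. Active phytochromes bind the PIFs, a family of bHLH transcription factors that promote elongation and growth in darkness or shade. This binding leads to phosphorylation and, for several of the PIFs, to breakdown. Much of the regulation of these proteins is therefore not visible in transcripts. PIF4 and PIF5 are known to promote leaf senescence in darkness and with age, and phyB is known to delay it. HY5 is a bZIP factor that acts against the PIFs at shared target genes, many of which carry the G-box, and its protein is removed in the dark by the COP1-SPA ubiquitin ligase.

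Because PIFs and HY5 bind the G-box (CACGTG) and PIFs also bind the related PBE-box (CACATG or, on the opposite strand, CATGTG), the 500 bases before the annotated start of each gene were read from the TAIR10.1 genome and searched on both strands. A G-box lay in 9.35% and a PBE-box in 21.1% of 27443 such windows across the genome, and no stretch of 6 bases can match both. *PHYB* had 2 G-boxes, *PIF5* had 1 G-box and *HY5* had 1 PBE-box, whereas *PHYA*, *PIF1*, *PIF3*, *PIF4*, *PIF7* and *PIF8* had neither in this window. These stretches are shown because *PHYB* is the member called in *pwr* and *PIF5* is the member with the highest level in ES leaves. The *PHYB* stretch is the 121 bases at chr2:8139561-8139681 (plus strand) bounded by a primer pair that the study designed for chromatin immunoprecipitation (ChIP) and quantitative PCR. It runs from 195 to 75 bases before the gene start, overlaps no annotated gene, and holds both G-boxes, which begin 146 and 111 bases before the start. The *PIF5* stretch is chr3:21830970-21831029 and the *HY5* stretch is chr5:3595179-3595238, both on the minus strand, with motifs that begin 165 and 138 bases before the start. Capitals mark the motifs.
PHYB: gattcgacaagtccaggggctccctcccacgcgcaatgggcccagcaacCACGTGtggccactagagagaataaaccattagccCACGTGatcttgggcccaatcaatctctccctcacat
PIF5: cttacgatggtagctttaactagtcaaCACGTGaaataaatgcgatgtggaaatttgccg
HY5: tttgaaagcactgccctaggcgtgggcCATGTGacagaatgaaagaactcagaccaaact
A match to these letters describes the sequence only. Binding at these places was not analysed here.

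**Figure D1:**
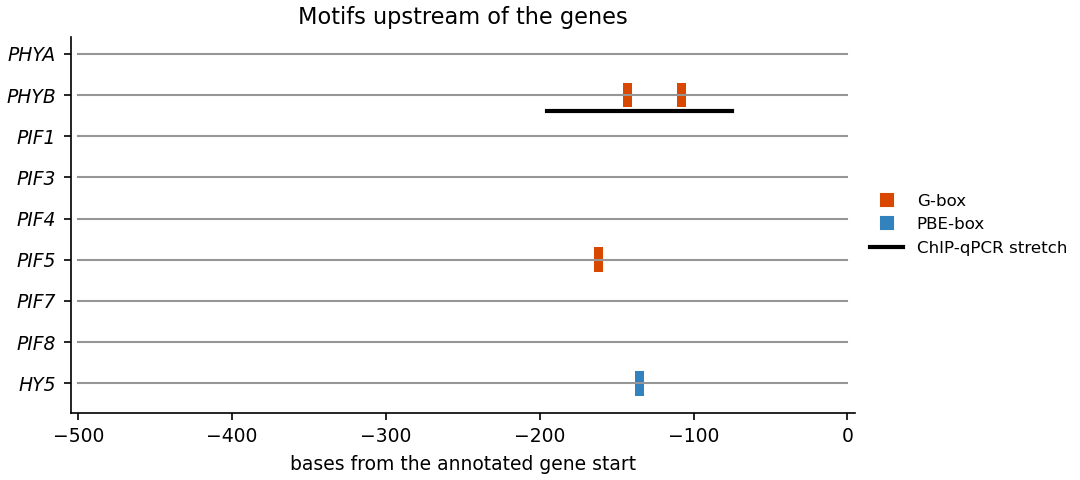
Motif positions in the 500 bases before the annotated start of each gene, with distance in bases on the horizontal axis and 1 line per gene. G-boxes are orange and the PBE-box is blue, and the black bar under *PHYB* is the ChIP-qPCR stretch from 195 to 75 bases before the start, which holds both G-boxes of that gene.

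Values are FPKM, in which fragment numbers are divided by transcript length and by library size, so levels can be set side by side between genes of different length. The files hold no read counts, and the number of reads behind each value is therefore unknown. The labels of the mutants were checked first. *HDA9* stood at 5.94 and 11.7 FPKM in WT ES libraries against 1.12 and 3.21 in *hda9*, and *PWR* at 10.2 and 16.97 FPKM in WT against 7.01 and 6.02 in *pwr*. The mutated gene was thus below WT in every mutant ES library, while *PWR* stood at 28.5 and 51.5 FPKM in *hda9*. *PWR* shares 104 bases with the antisense gene AT3G52260, whose reads the libraries cannot keep apart. In 5 libraries (WT ES 2, *hda9* ES 2, both *pwr* ES and WT YL 2) low FPKM values fall on shared steps of whole reads. In pairs of these 5, 13.8% to 21.2% of low values had the same ratio, against at most 3.05% in pairs of the other 4. The other 4 are thus grouped only by the lack of such steps and were not shown to be alike. The labels name no batch for this technical split. It takes 1 WT and 1 *hda9* ES library on each side but both *pwr* libraries on the same side. Summed FPKM of 4 mesophyll markers ran from 12210 to 26680 in WT ES, from 4462 to 15900 in *hda9* ES and from 11840 to 15830 in *pwr* ES libraries. The sum of 4 senescence markers ran from 497 to 1066 in WT ES, from 1238 to 1600 in *hda9* ES, and from 210 to 475 in *pwr* ES libraries. *SEN4* and *SAG13* carry this sum, whereas *WRKY53* of the same list was at 4.68 and 13.2 FPKM in WT and at 51.1 and 21.5 in *pwr*. *SAG12*, a late senescence protease gene, was at 0 in WT ES 1 and at 5.0 FPKM in WT ES 2, at 0.64 and 10.9 in *hda9* ES, and at 0.08 and 0.64 in *pwr* ES. The study reported *SEN4* and *SAG12* as lower in *hda9* by quantitative RT-PCR. It also reported later leaf yellowing in both mutants, and a smaller rise of senescence-associated genes from YL to ES leaves in *hda9* than in WT. In these libraries *SAG12* overlapped between *hda9* and WT. *SEN4* was at 724 and 748 FPKM in *hda9* ES against 373 and 673 in WT ES. The part of these markers in the differences between genotypes was not tested. The YL libraries carried transcripts of other organs: *PYK10*, a beta-glucosidase gene known from roots and hypocotyls, was at 622, 916 and 601 FPKM in YL against 2.12 to 15.8 in ES, and the meristem genes *STM* and *KNAT1* were at 3.23 to 7.99 FPKM in YL and below 1 in every ES library. The organ make-up of the sample and leaf age cannot be told apart in any comparison of YL with ES.

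*PIF5*, *PIF4* and *PIF8* were the most abundant of the 9 transcripts in WT ES leaves, at a mean ± SD of 60.7 ± 7.24, 44.5 ± 0.18 and 41.3 ± 14.2 FPKM (n = 2 each). *PHYA* followed at 21.4 ± 4.68 FPKM, *PIF3* at 18.9 ± 12.6, *PHYB* at 14.7 ± 2.68, *HY5* at 10.3 ± 1.61 and *PIF1* at 9.79 ± 1.82, and *PIF7* was lowest at 4.61 ± 0.12 FPKM (n = 2 each). Neighbours in this order whose libraries overlapped were *PIF4* and *PIF8*, *PHYA* and *PIF3*, *PIF3* and *PHYB*, and *HY5* and *PIF1*. *PIF5* was also the highest and *PIF7* the lowest member in *hda9* and in *pwr* ES leaves. *PHYB* moved up the order, with a mean below that of *PIF3* in WT, above it in *hda9*, and above those of *PIF3* and *PHYA* in *pwr*, where its libraries overlapped those of *PHYA*.

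**Figure D2:**
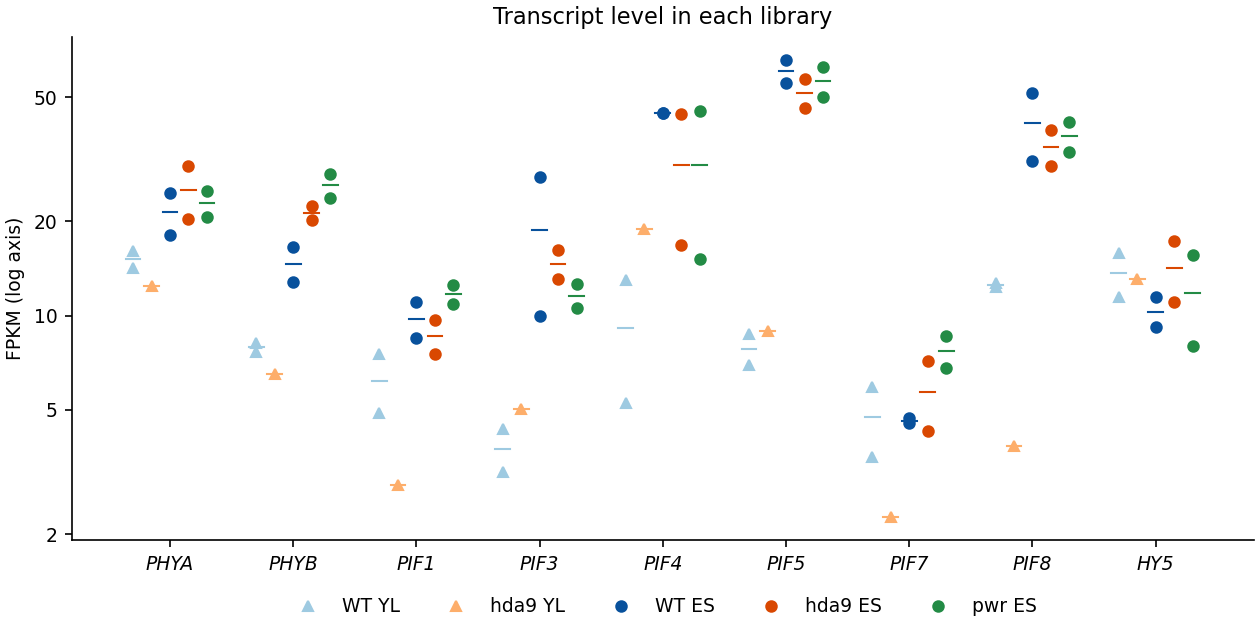
FPKM of the 9 genes in each library on a log axis, with circles for ES and triangles for YL libraries, colors for genotypes, and short lines for group means (2 libraries per group, 1 for *hda9* YL). *PIF5* lies between 46.0 and 65.8 FPKM in all ES libraries and between 6.96 and 8.92 in all YL libraries, and *PHYB* is lowest in WT and highest in *pwr* among ES libraries.

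The comparison of mutants with WT asks which of these genes depend on HDA9 or PWR in ES leaves. *PHYB* transcripts were higher in *pwr* and were the only member called there, and no member was called in *hda9* or between the mutants. Differences are on the log2(FPKM + 1) scale, tested with limma across 18140 genes, and a gene is called at an unadjusted p under 0.05, the threshold that the study used. With this rule 0 of 9 members were called in *hda9* against WT, where 4.93% of all genes were called. In *pwr* against WT 1 of 9 was called, against 6.47% of all genes in either direction and 3.65% called higher. Between *hda9* and *pwr* 0 of 9 were called, against 4.77% of all genes. With 9 genes, a single call cannot be told from these backgrounds. After Benjamini-Hochberg adjustment over all genes tested in limma no member passed 0.05 in any comparison, and 5 genes passed in *hda9*, 6 in *pwr* and 0 between the mutants. The comparisons share their WT libraries, so the *hda9* and *pwr* values are not independent of each other.

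*PHYB* (AT2G18790, chr2:8139756-8144461, plus strand) stood at 12.8 and 16.6 FPKM in the WT ES libraries, at 20.3 and 22.3 in *hda9*, and at 23.8 and 28.4 in *pwr*. Every mutant library lay above both WT libraries, and both *pwr* libraries lay above both *hda9* libraries. In whole leaves, more cells that express a gene and more RNA per cell cannot be told apart. The difference from WT was 0.79 ± 0.26 (SE) on the log2 scale in *pwr*, a 1.73-fold change (limma, called, adjusted p = 0.729), and 0.52 ± 0.26 in *hda9* (limma, not called, adjusted p = 0.908). With a block for the technical side of the libraries, the *hda9* difference of 0.52 was called as well. That block treats the libraries without steps as alike, which was not shown. Between the mutants, the log2 difference of *hda9* from *pwr* was -0.28 ± 0.26 and was not called (limma, adjusted p = 0.944). Against WT ES 2 alone, which shares the technical side of the *pwr* libraries, the *pwr* differences were 0.50 and 0.74. The *hda9* differences were 0.63 between the libraries without steps and 0.41 between those with steps. The *PHYB* call was lost when WT replicate 1 (log2 difference 0.62), *pwr* replicate 1 (0.92) or *pwr* replicate 2 (0.67) was left out.

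*PHYA* (AT1G09570, chr1:3095160-3100819, minus strand) showed no such order. Its level was 18.1 and 24.7 FPKM in WT, 20.3 and 30.1 in *hda9*, and 25.0 and 20.7 in *pwr* ES libraries, with all genotypes overlapping and log2 differences from WT of 0.22 ± 0.32 and 0.10 ± 0.32 (SE). The ratio of *PHYB* to *PHYA* within a library, which cancels any scaling of that library, was 0.705 and 0.670 in WT, 0.999 and 0.741 in *hda9*, and 0.953 and 1.37 in *pwr*. All 4 mutant ratios thus lay above both WT ratios. The log2 ratio differed from WT by 0.73 in *pwr* and by 0.32 in *hda9* (two-sided exact permutation test, p = 0.333 each, the smallest that 2 against 2 libraries allow, adjusted p = 0.5 over 3 comparisons).

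The other phytochromes give the family context. *PHYC*, whose protein acts as a dimer with phyB, was called higher in *pwr*: it stood at 11.7 and 14.0 FPKM in WT and at 20.2 and 23.1 in *pwr*, a log2 difference of 0.71 ± 0.27 (limma, adjusted p = 0.729). *PHYC* in *hda9* was at 14.9 and 19.6 FPKM, above both WT libraries but not called. It comes from a list of other phytochromes and PIF-like genes, in which 1 of 6 tested genes was called higher in *pwr*, against 3.65% of all genes. *PHYE* was at 15.7 and 14.5 FPKM in WT, 19.1 and 16.2 in *hda9* and 19.6 and 17.2 in *pwr*, and *PHYD* at 3.89 to 7.00 over the 6 ES libraries, and neither was called.

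**Figure D3:**
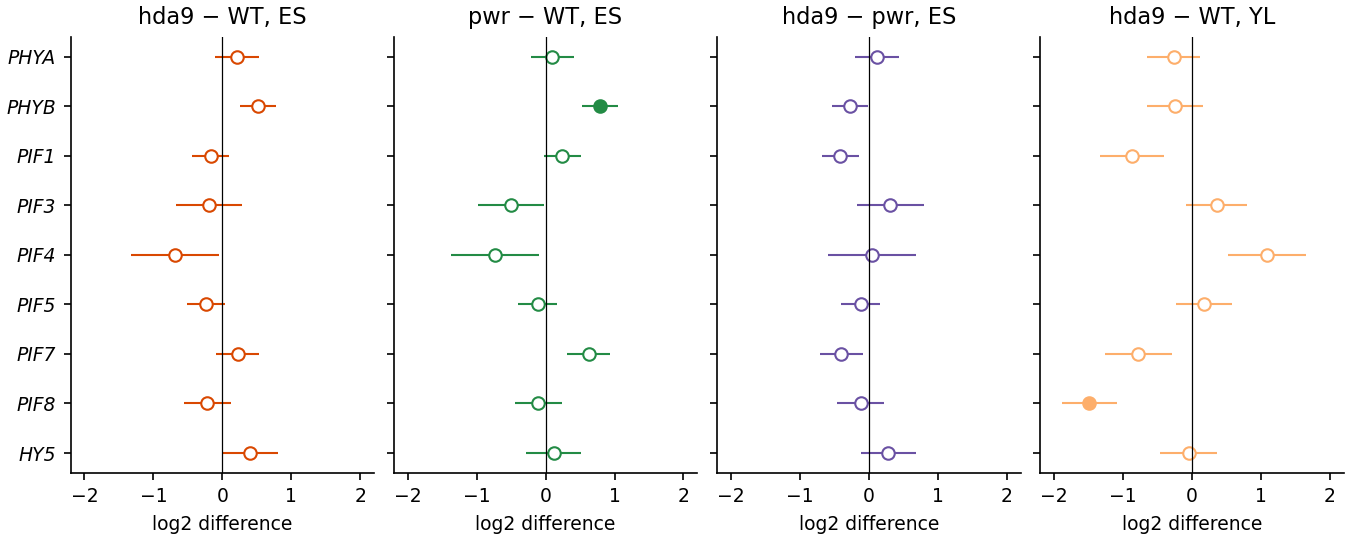
Log2(FPKM + 1) differences of the 9 genes (horizontal axis) in 4 comparisons, with bars for ± 1 SE from limma and filled points for genes called at an unadjusted p under 0.05 (2 libraries per group, 1 for *hda9* YL). *PHYB* in *pwr* (0.79) and *PIF8* in *hda9* YL (-1.49) are the filled points.

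Among the PIFs, 0 of 6 genes were called in ES leaves of either mutant with the main model. *PIF7*, a factor known for its role in shade and warmth responses, came nearest. *PIF7* (AT5G61270, chr5:24638491-24640765, minus strand) was at 4.70 and 4.53 FPKM in WT, 7.14 and 4.28 in *hda9* and 6.78 and 8.61 in *pwr*. Both *pwr* libraries were above both WT libraries, with a log2 difference of 0.62 ± 0.31 (limma, not called, adjusted p = 0.729). With a block for the technical side of the libraries it was 0.79 and was called. It overlaps the antisense gene AT5G61260 by 318 bases, and the library kit does not keep strand, so reads of that overlap cannot be assigned to either gene.

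*PIF4* (AT2G43010, chr2:17886101-17889087, plus strand) was the member with the widest spread between replicates of the mutants. It stood at 44.3 and 44.6 FPKM in WT ES libraries, at 16.8 and 44.0 in *hda9*, and at 45.2 and 15.2 in *pwr*. A single library of each mutant, *hda9* replicate 1 and *pwr* replicate 2, was low, and the other library was at the WT level. Log2 differences of -0.68 ± 0.64 in *hda9* and -0.73 ± 0.64 in *pwr* (limma, adjusted p = 0.926 and adjusted p = 0.786) therefore did not exceed the replicate spread. The low libraries lie on different sides of the technical split. *PIF5* (AT3G59060, chr3:21827905-21830837, minus strand), the closest relative of *PIF4*, was steadier, at 65.8 and 55.6 FPKM in WT, 46.0 and 57.2 in *hda9*, and 62.4 and 49.9 in *pwr*. The libraries that were low in *PIF4* were also the lowest of the 6 in *PIF5*, and the Pearson correlation of the genes over the 6 ES libraries was 0.861, a description over libraries that share genotype and technical side.

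*PIF3* (AT1G09530, chr1:3075768-3079654, plus strand) was at 9.96 and 27.7 FPKM in the WT ES libraries, 16.2 and 13.1 in *hda9*, and 10.6 and 12.6 in *pwr*. WT replicate 2 stood above all others, and leaving out WT replicate 1 gave a called log2 difference of -1.20 in *pwr* with limma, whereas with all libraries it was -0.50 ± 0.48 and not called (adjusted p = 0.799). *PIF8* (AT4G00050, chr4:17639-20183, plus strand, named *UNE10* in the reference annotation) was at 31.3 and 51.4 FPKM in WT, 39.2 and 30.1 in *hda9* and 33.3 and 41.7 in *pwr*. It varied with *PIF3* over the 6 libraries (Pearson r = 0.845), with WT replicate 2 highest in both genes. *PIF1* (AT2G20180, chr2:8704024-8707009, minus strand), known for repressing seed germination, was at 11.1 and 8.50 FPKM in WT, 9.68 and 7.52 in *hda9* and 12.6 and 10.9 in *pwr*, with overlap between each mutant and WT. It shares 334 bases with the antisense gene AT2G20170.

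*HY5* (AT5G11260, chr5:3593335-3595073, minus strand) was at 9.17 and 11.5 FPKM in WT ES libraries, at 11.1 and 17.4 in *hda9*, and at 7.99 and 15.6 in *pwr*. All genotypes overlapped, and the log2 differences from WT were 0.40 ± 0.40 in *hda9* and 0.12 ± 0.40 in *pwr* (SE). Its homolog *HYH* was at 16.4 to 31.1 FPKM over the 6 ES libraries and was not called.

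In young leaves *hda9* has 1 library, so a difference from WT has no replicate check in the mutant. *PIF8* lay farthest from WT and was the only member past the threshold. It stood at 12.7 and 12.4 FPKM in the WT libraries and at 3.82 in the single *hda9* library, a log2 difference of -1.49 ± 0.40 (limma, adjusted p = 0.470). That made 1 of 9 members, against 8.72% of 17780 tested genes called in either direction and 4.94% called lower, and 19 genes passed the adjusted threshold. The spread in this fit comes from the WT pair alone, and the lone *hda9* library was taken to vary like WT, so the result compares that library with WT. *PIF1* at 2.88 FPKM was also below WT (7.52 and 4.88), as were *PIF7* at 2.27 (WT 3.54 and 5.91), *PHYB* at 6.50 (WT 8.20 and 7.64) and *PHYA* at 12.4 (WT 14.2 and 16.2). *PIF4* at 18.9 FPKM was above WT (13.0 and 5.24), and so was *PIF3* at 5.04 (WT 3.16 and 4.33) and *PIF5* at 8.92 (WT 8.73 and 6.96), while *HY5* at 13.1 lay between the WT values (15.9 and 11.5). None of these passed the test. The *hda9* YL library also had the lowest sum of 2 guard cell markers, 2.25 FPKM against 4.66 to 15.3 in WT YL, and its part in these values was not tested.

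The widest differences among these genes lay between ES and YL libraries, where leaf age and organ make-up cannot be told apart. *PIF5* was at 55.6 to 65.8 FPKM in WT ES against 6.96 to 8.73 in WT YL libraries, a 7.75-fold ratio of means. *PIF3* had a ratio of 5.03 (9.96 and 27.7 against 3.16 and 4.33 FPKM), *PIF4* of 4.86 (44.3 and 44.6 against 13.0 and 5.24) and *PIF8* of 3.30 (31.3 and 51.4 against 12.7 and 12.4). *PHYB* had a ratio of 1.85, *PIF1* of 1.58 and *PHYA* of 1.41, and *PIF7* (0.976) overlapped. *HY5* was the only member with both ES libraries below both YL libraries, at a ratio of 0.753. The ES and YL values come from separate tables, so this comparison carries no test.

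In 7 of 9 members both WT ES libraries were above both WT YL libraries, against 51.2% of 18680 genes, and 4 of 9 did so by at least 1 on the log2 scale, against 32.0%. The median gene was itself higher in ES by 0.53 on the log2 scale, and relative to it the differences were 2.28 for *PIF5*, 1.75 for *PIF4*, 1.38 for *PIF3*, 1.07 for *PIF8*, 0.27 for *PHYB*, 0.07 for *PIF1*, -0.07 for *PHYA*, -0.53 for *PIF7* and -0.90 for *HY5*. When all 9 libraries were rescaled to a common median ratio, both ES libraries stayed above both YL libraries for 5 members (*PIF3*, *PIF4*, *PIF5*, *PIF8* and *PHYB*), against 33.0% of genes, while *PHYA* and *PIF1* overlapped and *PIF7* and *HY5* were below. In *hda9*, the ES libraries were both above the YL library for 7 members, against 58.8% of all genes and with a median gene higher by 0.65. Among these 7, the log2 differences were 2.87 for *PIF8*, 2.40 for *PIF5*, 1.57 for *PHYB*, 1.37 for *PIF3* and 1.30 for *PIF1*. The *hda9* ES libraries were not both above YL for *PIF4* (16.8 and 44.0 against 18.9 FPKM) or for *HY5* (11.1 and 17.4 against 13.1).

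**Figure D4:**
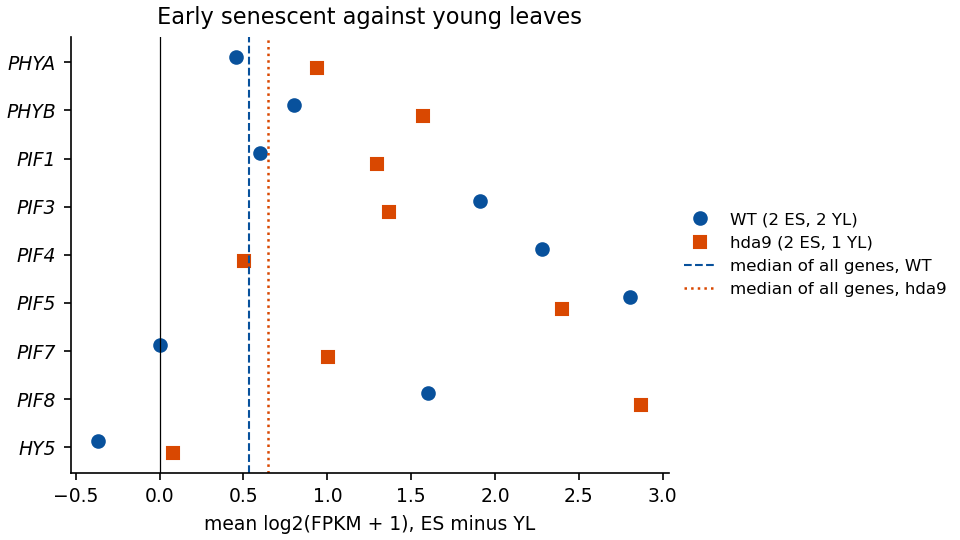
Mean log2(FPKM + 1) of ES minus YL leaves (horizontal axis) for WT (blue circles) and *hda9* (orange squares), with dashed and dotted lines at the median of all genes in each genotype. *PIF5* (2.81), *PIF4* (2.28), *PIF3* (1.91) and *PIF8* (1.60) lie far right of the WT median of 0.53, and *HY5* (-0.37) lies left of it.

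The make-up of the PIF transcripts can be read within a library, where no scaling between tables enters. The sums themselves do carry that scaling: the 6 PIF genes summed to 135 to 192 FPKM in ES and to 39.7 to 48.7 FPKM in YL libraries. Shares and ratios do not carry it. *PIF5* made up 28.9% to 39.4% of that sum in ES and 17.5% to 21.3% in YL, whereas *PIF1* made up 4.42% to 7.82% in ES and 6.88% to 15.5% in YL. *PIF4* took 45.3% in the *hda9* YL library against 26.8% and 13.2% in WT YL, and only 12.4% and 11.0% in *hda9* ES 1 and *pwr* ES 2. The summed PIF level was 8.91 to 21.4 times that of *HY5* in ES and 3.06 to 3.46 times in YL libraries, without overlap. The ratio of *PHYB* to *PHYA* was likewise lower in every YL library (0.577, 0.473 and 0.523) than in any ES library (0.670 to 1.37).

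**Figure D5:**
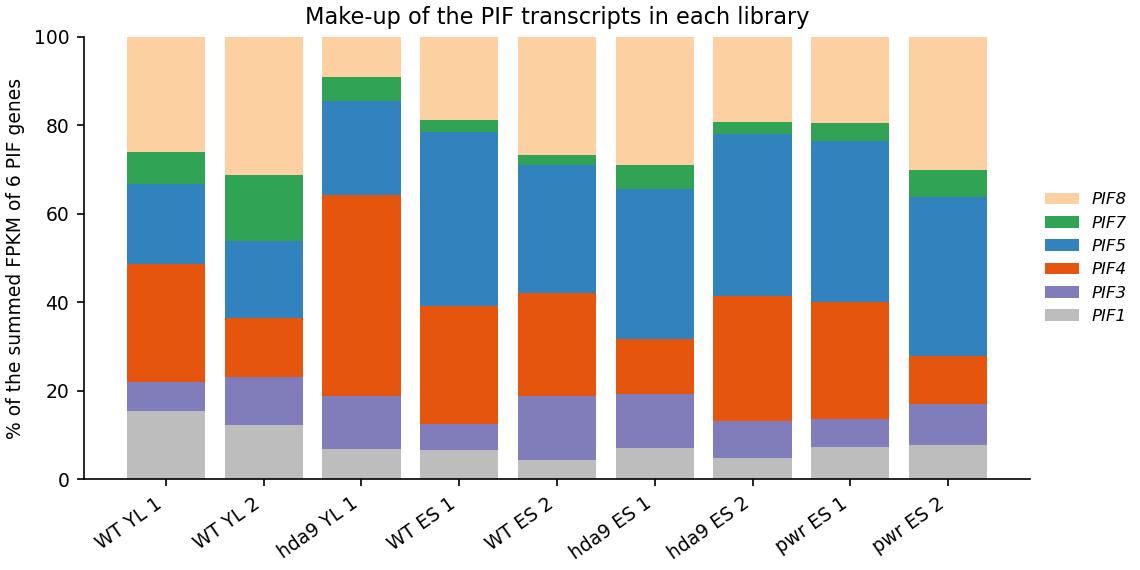
Share of each PIF gene (% of the summed FPKM of the 6 PIF genes, vertical axis) in each library, YL on the left and ES on the right. The *PIF5* share is 28.9% to 39.4% in ES and 17.5% to 21.3% in YL libraries, and the *PIF4* share is lowest in *pwr* ES 2 (11.0%).

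Further genes of the light pathway were taken from 8 lists with 65 genes in all, of which 56 passed the filter on low values in ES leaves. In *hda9* 1 was called higher and 2 lower, against 2.23% and 2.71% of all genes. The median log2 difference in *hda9* was 0.19 against 0.01 over all genes. In *pwr* 3 were called higher and 2 lower, against 3.65% and 2.82% of all genes, with a median of 0.23 against 0.08. Between *hda9* and *pwr* 0 were higher and 3 lower, where 2.76% of all genes were called lower. With 56 genes these counts lie near those shares, the lower count between the mutants least so, and they were not tested. Of 58 tested in YL, 1 was called higher and 4 lower, where 3.78% and 4.94% of all genes were, which leaves these counts near the background too.

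Among 7 tested phytochrome partners 1 was called higher in each mutant, a different gene each time, against 2.23% of all genes called higher in *hda9* and 3.65% in *pwr*, and with 7 genes a single call cannot be told from these shares. *HMR*, which is required for phytochrome signaling and for chloroplast transcription, was at 7.13 and 9.57 FPKM in WT, 8.01 and 11.6 in *hda9*, and 14.4 and 30.6 in *pwr*, a log2 difference of 1.25 ± 0.42 in *pwr* (limma, adjusted p = 0.729). *FHY3*, a transposase-derived activator of the phyA transport genes *FHY1* and *FHL*, was called higher in *hda9*, at 27.9 and 36.9 against 18.1 and 21.8 FPKM in WT (0.66 ± 0.27, limma, adjusted p = 0.908), while *FHY1* and *FHL* were not called. Of 10 genes of the COP1-SPA and DET1 complexes 0 were called in either ES mutant. *COP1* itself stood at 14.7 and 14.8 FPKM in WT, 16.98 and 18.2 in *hda9* and 20.5 and 25.4 in *pwr*, in the same order as *PHYB* and without overlap, though it was not called. *SPA1* of the same list showed this order too, and the share of all genes that do so was not counted. The cryptochrome genes *CRY1* and *CRY2*, which encode blue light receptors, were not called.

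Of 9 tested PIF antagonists and HY5 partners 1 was called lower in each mutant, a different gene each time, against 2.71% of all genes called lower in *hda9* and 2.82% in *pwr*. The list medians were -0.32 in *hda9* and 0.01 in *pwr*. *HFR1*, an atypical bHLH factor that binds PIFs and blocks them from DNA, was at 6.51 and 12.0 FPKM in WT and at 4.005 and 1.07 in *pwr*, a log2 difference of -1.62 ± 0.64 (limma, adjusted p = 0.729). *PAR2*, another inhibitory factor of shade responses, was at 1.09 and 1.94 FPKM in WT against 0.50 and 0.21 in *hda9* and 1.46 and 2.33 in *pwr* (*hda9* -0.88 ± 0.36, limma, adjusted p = 0.908), and its mean was close to the lower limit of the filter. *PIL2*, a PIF relative also known as PIF6, is not in this list and was called lower in both mutants. It was at 6.20 and 7.52 FPKM in WT and at 4.31 and 3.22 in *hda9* (-0.73 ± 0.28, limma, adjusted p = 0.908). In *pwr* it was at 2.78 and 2.29 (-1.15 ± 0.28, limma, adjusted p = 0.729). Its own list, the other phytochromes and PIF-like bHLH genes, had 6 tested genes. Of these, 0 were called higher and 1 lower in *hda9*, and 1 higher (*PHYC*) and 1 lower in *pwr*. With 6 genes, a single call cannot be told from the shares of all genes. *BBX32*, a B-box protein that acts against HY5-dependent transcription, was lower in *hda9* (10.6 and 6.61 FPKM) than in *pwr* (16.2 and 29.5), with a log2 difference of -1.28 ± 0.38 (limma, adjusted p = 0.926). The other genes called lower in *hda9* than in *pwr* were *PAR2* (-1.09) and *HMR* (-1.05), and 2.76% of all genes were called lower there.

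Few target genes of the PIFs and of HY5 were called, which does not show that they were unchanged. Of 7 tested PIF targets in growth 0 were called in *hda9* and 1 in *pwr*, where 3.65% of all genes were called higher. It was the auxin response gene *IAA19*, at 3.48 and 2.84 FPKM against 0.54 and 1.74 in WT (1.02 ± 0.38, limma, adjusted p = 0.729). Of 7 tested PIF targets in senescence 0 were called in ES leaves, with median log2 differences of 0.37 in *hda9* and 0.17 in *pwr* against 0.01 and 0.08 over all genes. The list takes its genes without regard to the direction of PIF action, so these medians are no measure of that action. *NYC1*, which encodes an enzyme of chlorophyll b breakdown, was at 115 and 340 FPKM in WT, 342 and 770 in *hda9*, and 123 and 210 in *pwr*. *NAC092* (ORE1), a senescence regulator known to be activated by PIF4 and PIF5, was at 9.88 and 74.4 FPKM in WT, 43.5 and 128 in *hda9*, and 17.8 and 23.2 in *pwr*, so that the WT libraries alone spanned most of the range. Of 8 tested HY5 targets 0 were called, with medians of 0.29 in *hda9* and 0.24 in *pwr*, and the chalcone synthase gene *CHS* ran from 97.2 to 664 FPKM between the WT libraries.

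The ES and YL libraries differ in organ make-up as well as in leaf age. In WT, 9 of 10 genes of the COP1-SPA and DET1 complexes had both ES libraries above both YL libraries, against 51.2% of all genes. So did 6 of 8 PIF targets in senescence. The 6 PIF targets include *GLK1* (161 and 126 against 50.6 and 41.7 FPKM) and *GLK2* (89.7 and 129 against 69.5 and 73.8), whereas *EEL* was below and *ABI5* overlapped. That list was not split by the direction in which PIFs act on its genes, so the count is no measure of PIF action. *SPA1*, a COP1 partner, was at 48.8 and 52.7 FPKM in WT ES against 8.53 and 11.3 in WT YL, and *EIN3*, an ethylene response factor, at 79.2 and 138 against 19.1 and 24.4. Of 8 tested PIF targets in growth 2 were above and 2 below, and of 11 tested antagonists and HY5 partners 6 were above and 4 below, with 20.4% of all genes below. *XTH15*, which encodes a cell wall enzyme, was at 0.94 and 0.10 FPKM in WT ES against 6.88 and 7.82 in YL, and the PIF antagonist *PAR1*, which went against most of its list, at 0.20 and 0.13 against 6.396 and 10.7.

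The genes whose levels followed a member most closely over the 6 ES libraries were found by Pearson correlation of log2(FPKM + 1) among all tested genes. For *PHYB* they were AT1G14580 (r = 0.995) and AT1G19750 (r = 0.993), and 147 genes exceeded 0.95. For *PHYA* they were AT1G61850 (r = 0.998) and *NHL8* (r = 0.996), with 262 genes over 0.95, and for *PIF4* they were the small RNA gene *U60.1F* (r = 0.996) and *SBI1* (r = 0.984). *UBP1B* came closest to *PIF5* (r = 0.991), *EMB1895* to *HY5* (r = 0.974), *CAT5* to *PIF1* (r = 0.985), AT3G12502 to *PIF3* (r = 0.987), AT1G50180 to *PIF7* (r = 0.979) and *RHD1* to *PIF8* (r = 0.982). With 6 libraries and 18140 genes such values describe these libraries only.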

How the data were processed

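RNA of leaves was sequenced from TruSeq libraries, which do not keep strand. By the study's methods, reads were aligned to TAIR10 with Bowtie2 (2.1.0), reads at identical positions were collapsed, and Tophat (2.0.8b) and Cufflinks (2.1.1) gave expression values. The authors deposited FPKM per gene, in a table for ES and a table for YL libraries, with no counts, so depth per gene is unknown. ChIP samples were not analysed here. Collapsing reads can lower the values of very abundant transcripts.

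Genes whose FPKM averaged 1 or more over the libraries compared were kept, log2(FPKM + 1) was taken, and limma (3.58.1, R 4.3.3) with a mean-variance trend was run two-sided on each table, with all 6 ES libraries in the same fit. It was tested on simulated data with independent noise in each library, which does not cover the technical split of the real libraries. All 9 members passed the filter in each table. Levels of ES and YL leaves were set side by side without a test. The labels do not say whether replicates were separate plants, whereas the methods call them biological; p-values measure the spread between these libraries. Labels give YL as 2 weeks old, and the methods give a younger age. The members and the gene lists were chosen with earlier results of these data known. All members are named, and of each list up to 4 genes per ES comparison that were called without overlap of libraries, largest difference first. *PHYD*, *PHYE*, *HYH*, *COP1*, *SPA1*, *EIN3*, *NAC092*, *NYC1*, *GLK1*, *GLK2*, *EEL*, *ABI5*, *CHS*, *XTH15* and *PAR1* were named after their values were seen. Of 33278 identifiers, 32820 matched the RefSeq annotation of TAIR10.1, the source of coordinates and sequences. Alternatives were other scalings, pseudocounts of 0.1, filters of 0 and 5 FPKM, fits with a technical or replicate block, and leaving out each library.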

Additional observations from a re-analysis of the deposited data

Results flagged for a closer look

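*PIF4* and *PHYB* had *hda9* differences of opposite sign in ES and young leaves, with every *hda9* library on the same side of both WT libraries at each age. A single *hda9* YL library falls outside the WT range easily, and of the members only *HY5* lay between the WT values there. The share of all genes with such a pattern was not counted. For *PIF4* the log2 difference from WT was -0.68 in ES leaves and 1.09 in young leaves. For *PHYB* it was 0.52 in ES leaves and -0.25 in young leaves. The difference between the ages was not tested, because the ages are in separate tables and *hda9* has 1 YL library. None of the 4 differences passed limma's test, and in ES the *PIF4* value rests on *hda9* replicate 1, since *hda9* replicate 2 (44.0 FPKM) was within 1 FPKM of both WT libraries (44.3 and 44.6).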

How the results depend on the processing

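The member counts of calls kept within 1.5 times their value under other scalings, filters, pseudocounts and a fit of only the groups compared. Calls at an adjusted p under 0.05 gave 0 members in *pwr* and 0 in young *hda9* leaves in place of 1 each. With a block for the technical library set, calls rose to 1 in *hda9* (*PHYB*, 0.52), 2 in *pwr* (*PHYB*, and *PIF7* at 0.79) and 1 between the mutants (*PIF1*, -0.58). That block turned *PHYA* in *pwr* to -0.15 and *HY5* in *pwr* to -0.11, and median ratio rescaling turned *HY5* in young *hda9* leaves to 0.018. The replicate block changed no count (0 in *hda9*, 1 in *pwr*, 0 between the mutants). Deviations from the group means of same-numbered libraries correlated at 0.55 for WT with *hda9*, 0.10 for WT with *pwr* and -0.01 for *hda9* with *pwr*. The numbers thus go together for WT and *hda9* and not for *pwr*. Replicate 2 of WT ES and of *hda9* ES also share the steps of whole reads, whereas replicate 1 of each shares only the lack of them.

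Leaving out each library changed the calls in *pwr* and turned the sign of uncalled members. The *PHYB* call was lost when either *pwr* replicate was left out. It was also lost without WT replicate 1 (log2 difference 0.62), where *PIF3* (-1.20) was called lower instead. Ranges in *hda9* were -0.34 to 0.0048 for *PIF1*, -0.89 to 0.51 for *PIF3*, -0.089 to 0.54 for *PIF7*, -0.57 to 0.13 for *PIF8* and -0.058 to 0.49 for *PHYA*. In *pwr* they were -1.20 to 0.19 for *PIF3*, -1.49 to 0.024 for *PIF4*, -0.27 to 0.043 for *PIF5*, -0.45 to 0.24 for *PIF8*, -0.12 to 0.31 for *PHYA* and -0.32 to 0.56 for *HY5*. Between the mutants they were -0.71 to 0.80 for *PIF4*, -0.28 to 0.038 for *PIF5*, -0.30 to 0.071 for *PIF8*, -0.16 to 0.39 for *PHYA* and -0.16 to 0.73 for *HY5*. The count of 7 members higher in WT ES leaves was 5 after rescaling all libraries, and 8 and 7 within each technical set, all chosen after seeing the data. The causes of these changes were not tested. With unknown depth, values near 1 FPKM carry an unknown counting error.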
